A study of Homo sapiens with 12 samples.

Results

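The response of the HNSCC line set labelled A to C to high-dose IFNα was measured in 4 of the 12 samples of the series: untreated controls A1 and A2, and C1 and C2, which received 200 ng/ml IFNα for 24 h. The members were chosen by the sample labels and not by a rule on expression values. They and the gene lists were chosen with earlier results of these data known. The study treated the established HNSCC lines Cal27 and HN30 with 0, 20 or 200 ng/ml IFNα for 24 h, with 2 replicates per line and dose. The letters A to C and D to F each hold every dose once, B and E being the 20 ng/ml samples, D the other control and F the other 200 ng/ml group. Which letters belong to Cal27 and which to HN30 is not given in the sources used here, so the line sets are named by their letters. The labels name no transgene or deletion for the cells or the controls, which does not show that there was none. Each line is a single culture-adapted tumour line. Nothing says that the replicates came from separate cultures, so p-values measure the spread between these libraries, which may be technical.

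IFNα is a type I interferon. Its receptor chains IFNAR1 and IFNAR2 activate the kinases JAK1 and TYK2, and phosphorylated STAT proteins join IRF9 to form the complex ISGF3, which binds the interferon-stimulated response element in the promoters of antiviral genes. In epithelial and tumour cells the induced genes block viral entry, RNA and translation, present antigen, attract lymphocytes and, through ligands such as PD-L1 and galectin-9, restrain them.

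The promoters of 5 strongly induced genes are shown because they carry the sequence that ISGF3 is known to bind. They are the antiviral or ISG15-system genes of highest fold change whose 250 bases before the RefSeq start held at least 2 matches to the core, searched as GAAA, any 2 bases and GAAA and, for the other strand, TTTC, any 2 bases and TTTC. All are from GRCh38.p14, written 5′ to 3′ on the strand of the gene, and capitals mark the core. IFI44L lies at chr1:78620198-78620447 on the plus strand, IFIT1 at chr10:89392373-89392622 on the plus strand, IFI6 at chr1:27672193-27672442 on the minus strand, IFIT3 at chr10:89327747-89327996 on the plus strand and ISG15 at chr1:1013247-1013496 on the plus strand.
IFI44L: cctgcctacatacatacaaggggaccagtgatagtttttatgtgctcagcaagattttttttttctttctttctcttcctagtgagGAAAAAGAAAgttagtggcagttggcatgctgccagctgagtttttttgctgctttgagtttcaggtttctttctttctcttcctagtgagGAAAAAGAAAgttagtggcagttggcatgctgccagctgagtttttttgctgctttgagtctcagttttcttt
IFIT1: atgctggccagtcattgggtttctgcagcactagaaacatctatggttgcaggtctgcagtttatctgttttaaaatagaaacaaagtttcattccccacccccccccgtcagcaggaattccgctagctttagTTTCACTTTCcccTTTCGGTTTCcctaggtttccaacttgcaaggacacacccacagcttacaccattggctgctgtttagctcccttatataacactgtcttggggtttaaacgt
IFI6: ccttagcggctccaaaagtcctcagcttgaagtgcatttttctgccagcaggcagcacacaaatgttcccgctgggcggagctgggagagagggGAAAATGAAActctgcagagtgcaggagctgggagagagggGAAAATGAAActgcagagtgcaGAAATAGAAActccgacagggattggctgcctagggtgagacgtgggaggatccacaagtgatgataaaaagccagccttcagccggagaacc
IFIT3: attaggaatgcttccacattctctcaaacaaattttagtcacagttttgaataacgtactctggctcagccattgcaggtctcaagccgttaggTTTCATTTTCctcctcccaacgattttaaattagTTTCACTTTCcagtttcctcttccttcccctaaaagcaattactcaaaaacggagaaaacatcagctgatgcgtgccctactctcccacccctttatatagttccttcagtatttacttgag
ISG15: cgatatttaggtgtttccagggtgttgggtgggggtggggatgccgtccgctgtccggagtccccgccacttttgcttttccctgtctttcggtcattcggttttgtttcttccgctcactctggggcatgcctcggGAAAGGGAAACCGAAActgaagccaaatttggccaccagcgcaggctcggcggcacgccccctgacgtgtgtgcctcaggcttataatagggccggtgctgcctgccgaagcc
In ISG15 the 2 matches share bases and begin 113 and 107 bases before the start. In IFIT1 they begin 116 and 103 bases before it and are written on the opposite strand. IFI6 held 3 matches and IFI44L had the same 10 letters at both of its matches, 164 and 73 bases before its RefSeq start. The IFI44L window lies inside the span of the counted gene, 78619922 to 78646145 on chromosome 1. Its RefSeq start is therefore not the start of that span. In the whole RefSeq window, which also takes 50 bases after the start, the core was found in 49 of 133 genes called higher in C, in 0 of 75 called lower (which allows a share of up to 4.0%) and in 329 of all 10933 tested genes with a window (3.01%). The STAT site core TTCNNNGAA, which can overlap it, was in 19 of the 133, 3 of the 75 and 701 of the 10933 (6.41%). A window was found for 47.5% of the genes called higher and 48.1% of those called lower, below the 80% needed, so the comparison of the lists is void and the counts describe these windows alone. The 5 printed promoters were picked for their matches. Of 34 antiviral effectors called higher with a window, 20 held the response element core before the start. RSAD2, XAF1, CMPK2 and OAS1 held none in the window. A match is a description of the sequence and not a measured site.

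Total estimated counts ran from 10517448 in C2 to 16056734 in A2 over the 4 samples, at which 3 counts, taken as the smallest readable level, were 0.187 to 0.285 CPM. These limits cover counting error only. Squamous markers such as KRT5 (1018 and 1088 TPM in A, 926 and 914 TPM in C) marked the cells as epithelial. Of 13 leukocyte markers 7 were at 0 TPM in all 4 samples, among them CD3E, CD4 and MS4A1. The summed leukocyte list went from 62.2 and 71.5 TPM in A to 112 and 120 TPM in C, nearly all of it from HLA-DRA and CD68. The 9 fibroblast markers summed to 7.44 to 16.1 TPM. Of 7 endothelial markers PECAM1, KDR and CLDN5 were at 0, whereas CDH5 was at 15.2 to 21.7 TPM.

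C differed from A in 2 further ways that touch every count below. The fold change followed the GC content of the transcript: the median log2 fold change of C against A was 0.25 for transcripts under 35% GC and -0.55 for those over 65% GC, against -0.0019 and 0.012 in F against D. At 20 ng/ml, B against A gave 0.29 and -0.11. The share of counts from mitochondrial genes was 4.80% and 4.79% in A1 and A2, 6.51% in C1 and 7.82% in C2. Genes called lower had a median GC content of 60.3% and those called higher 44.8%, against 48.0% over the tested genes. The part of GC content in single results was not tested, but an alternative fit that removed the trend within each line set is given beside the counts.

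**Figure D1:**
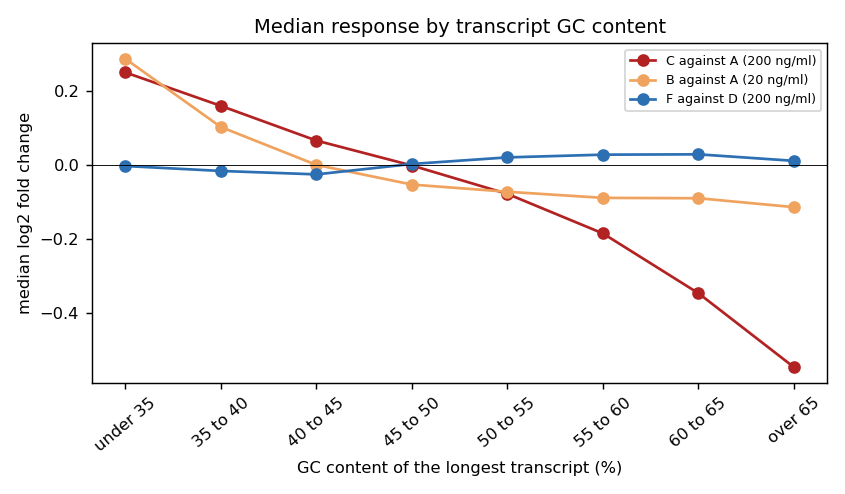
Median log2 fold change (vertical axis) of genes binned by the GC content of their longest transcript (horizontal axis, %), for C against A, B against A and F against D. The line for C against A falls from 0.25 to -0.55, while that for F against D stays within 0.03 of zero.

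At 200 ng/ml the line set A-C raised the interferon programme and lowered a smaller, less stable group of genes. Of 19944 tested genes, 280 were called higher in C than in A (1.4%) and 156 lower (0.782%), together 436 genes (2.19%). A gene was called where edgeR's quasi-likelihood test gave a Benjamini-Hochberg adjusted p of 0.05 or less and the change reached 2-fold. In bulk RNA, fewer cells of a type and less RNA per cell cannot be told apart. The median log2 fold change over all tested genes was -0.0027. Among the genes called higher, the median log2 fold change was 1.90, with 129 over 4-fold and 25 over 16-fold. Of these 280 genes 183 are protein coding and 39 carry no gene symbol. Among the genes called lower, the median was -1.34, and 31 fell by over 4-fold.

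With the GC trend removed, 248 genes were called higher (1.24%), 229 of them among the 280, and 73 lower (0.366%), 68 of them among the 156. The count of lower genes also turned on single libraries: it was 364 without C1, 101 without C2 and 59 without A2, whereas the count of higher genes stayed between 193 and 275. Both C samples were above both controls in TPM for 278 of the 280 genes, a pattern that 21.2% of all tested genes showed, and below them for 154 of the 156, a pattern shown by 25.5%. The genes called higher made up 0.993% and 0.981% of all counts in A, 2.95% and 2.85% in B and 3.81% and 3.91% in C.

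The antiviral effectors were the group with the highest count. Of 50 listed genes 40 were called higher and 0 lower, with a median log2 fold change of 2.26 against -0.0027 for all tested genes, and 41 with the GC trend removed. MX2 (ENSG00000183486, chromosome 21, 41361943 to 41409390), a GTPase that restricts retroviruses, was at 6.97 and 10.3 TPM in A and at 345 and 583 TPM in C. The groups did not overlap. The fitted rise was 5.65 on the log2 scale (SE 0.38), with an adjusted p of 0.000147. IFI44L (ENSG00000137959, chromosome 1, 78619922 to 78646145), an interferon-induced gene used as a marker of type I responses, went from 4.63 and 3.09 TPM to 142 and 153 TPM. Its rise was 5.63 on the log2 scale (SE 0.16), with an adjusted p of 1.73e-08. RSAD2, or viperin, which makes a chain-terminating ribonucleotide, was at 3.42 and 4.71 TPM in A and 107 and 103 TPM in C (log2 fold change 5.00, SE 0.14). In all these genes the lower C sample was more than 20 times the higher control.

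MX1 (chromosome 21, 41420304 to 41459214), the relative of MX2 that traps viral nucleoproteins, was already at 66.2 and 71.2 TPM without treatment. It reached 1137 and 1172 TPM in C, a rise of 3.93 on the log2 scale (SE 0.09) with an adjusted p of 8.05e-09. OAS2, which makes an oligoadenylate messenger of the antiviral response, rose from 26.2 and 27.1 TPM to 395 and 511 TPM. IFIT1, which binds the foreign 5′ ends of viral RNA, rose from 31.1 and 21.8 TPM to 498 and 523 TPM. XAF1, a pro-apoptotic partner of XIAP, rose from 7.15 and 8.18 TPM to 197 and 212 TPM. IFITM3, a membrane protein that blocks viral fusion, had the highest untreated level of the list, 537 and 565 TPM, and reached 1567 and 1815 TPM (log2 fold change 1.64, SE 0.26, adjusted p = 0.0103). Its close relatives share sequence with it, so its level is less certain than its direction.

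Of the 10 effectors that were not called, SAMD9L had a log2 fold change of 2.43, IFITM2 0.72, PML 0.79, TRIM25 0.78 and ZC3HAV1 0.62. SAMD9L was at 16.2 and 14.7 TPM in A and at 112 and 65.1 TPM in C. The cytidine deaminases APOBEC3B, APOBEC3C, APOBEC3F and APOBEC3G had log2 fold changes of 0.38, -0.21, 0.20 and 0.46, none of them called.

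**Figure D2:**
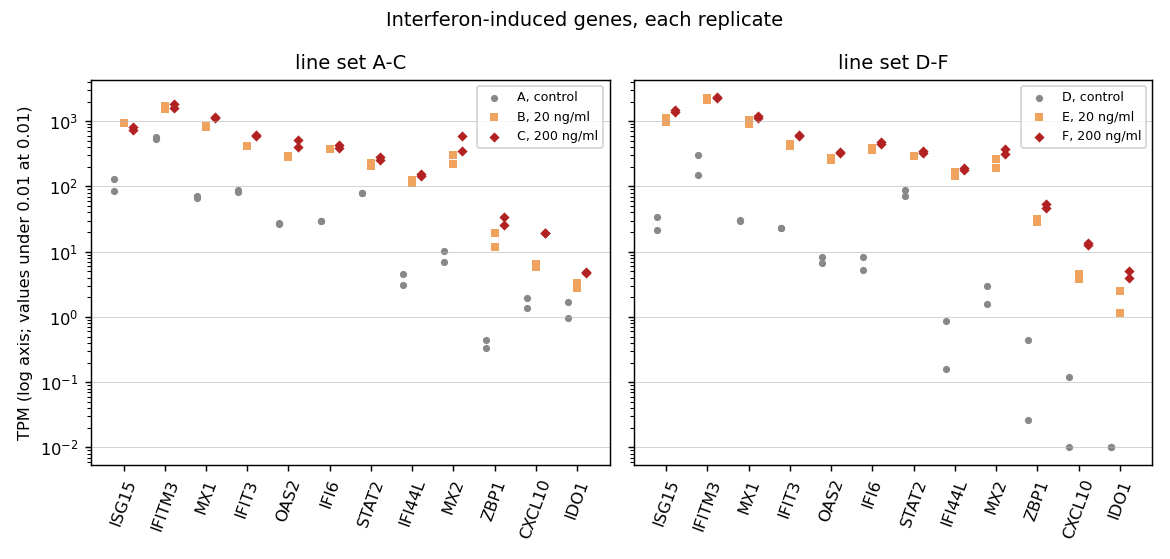
TPM (vertical log axis) of 12 interferon-induced genes in every replicate, with line set A-C on the left and D-F on the right; circles are controls, squares 20 ng/ml and diamonds 200 ng/ml. In A-C every diamond lies above both circles, and ISG15 is at 825 and 723 TPM in C against 86.3 and 130 TPM in A.

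All 6 genes of the ISG15 system were called higher, with a median log2 fold change of 2.66. ISG15, a ubiquitin-like modifier, rose from 86.3 and 130 TPM to 825 and 723 TPM (log2 fold change 2.79, SE 0.22, adjusted p = 0.000179). Its activating enzyme UBA7 rose from 17.1 and 13.9 TPM to 43.1 and 48.6 TPM, and its conjugating enzyme UBE2L6 from 78.9 and 82.2 TPM to 245 and 251 TPM. The ligase HERC5 rose from 5.04 and 4.57 TPM to 27.8 and 27.3 TPM. USP18, which removes ISG15 and also damps the receptor, rose from 6.78 and 8.60 TPM to 87.7 and 91.6 TPM. Genes for the attachment and for the removal of ISG15 were thus both higher in the same samples.

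Of 17 tested genes of interferon signalling 3 were called higher, among them parts of ISGF3. STAT2 rose from 78.5 and 80.2 TPM to 278 and 255 TPM, and IRF9 from 27.1 and 31.1 TPM to 155 and 114 TPM. The receptor chains IFNAR1 and IFNAR2 had log2 fold changes of -0.24 and -0.06, and the kinases JAK1 and TYK2 -0.03 and -0.22, none of them called. The feedback inhibitor SOCS1 was at 7.63 and 4.97 TPM in A and 4.26 and 2.36 TPM in C. Of 6 tested interferon regulatory factors IRF7, which drives further interferon production, was called, from 5.36 and 5.05 TPM to 28.8 and 22.3 TPM. IRF1 had a log2 fold change of 0.14 and IRF3 -0.40.

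Among 16 nucleic acid sensors and adaptors 9 were called higher and 0 lower, with a median log2 fold change of 1.28. The sensors DDX58 (RIG-I), IFIH1 (MDA5) and DHX58 (LGP2), which read viral RNA, had log2 fold changes of 2.66, 2.35 and 2.24. ZBP1, a sensor of Z-form nucleic acid, was at 0.446 and 0.335 TPM in A and 33.6 and 25.7 TPM in C (log2 fold change 5.07, SE 0.40, adjusted p = 5.9e-05). Of the adaptors downstream, MAVS had a log2 fold change of -0.40, TMEM173 (STING) -0.21, MYD88 0.33 and TICAM1 -0.69, and none was called. Of 8 tested genes of the PARP and DTX3L list 5 were called higher, PARP9, PARP10, PARP12, PARP14 and DTX3L, while PARP1 and PARP2, which act in DNA repair, had log2 fold changes of -0.27 and -0.0010.

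Antigen presentation gave few calls. Of 21 tested class I genes 2 were called higher, the immunoproteasome subunit PSMB9 (142 and 123 TPM to 253 and 408 TPM) and the peptide transporter TAP1 (43.0 and 46.4 TPM to 102 and 99.8 TPM), and the list had a median log2 fold change of 0.34. HLA-B was at 346 and 385 TPM in A and at 547 and 388 TPM in C. Its log2 fold change was 0.61 (SE 0.09, adjusted p = 0.00416), short of 2-fold. HLA-C had a log2 fold change of 0.93 with an SE of 0.49, and B2M 0.20 with an SE of 0.65. B2M replicates lay far apart, at 224 and 392 TPM in A and 487 and 240 TPM in C. HLA genes are polymorphic, and reads can be shared between them. None of 10 class II genes or of 14 constitutive proteasome subunits was called by edgeR or DESeq2. At an unadjusted p under 0.05 edgeR gave 1 and 3 genes. The class II list had a median log2 fold change of 0.53, positive in 8 of the 10 genes, and the proteasome list -0.07. HLA-DRA was at 52.7 and 58.2 TPM in A and 93.2 and 101 TPM in C. The invariant chain CD74 was at 235 and 253 TPM in A and 271 and 321 TPM in C.

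Of 13 tested checkpoint ligands 4 were called higher. LGALS9, which encodes galectin-9, a ligand of TIM-3, rose from 5.18 and 7.02 TPM to 72.9 and 86.3 TPM (log2 fold change 3.52, SE 0.22, adjusted p = 7.36e-06). CD274, the gene of PD-L1, rose from 9.69 and 6.29 TPM to 19.9 and 24.96 TPM (log2 fold change 1.61, SE 0.24, adjusted p = 0.00428). PDCD1LG2, the gene of PD-L2, rose from 1.95 and 2.23 TPM to 6.91 and 7.20 TPM. IDO1, which degrades tryptophan, rose from 1.70 and 0.947 TPM to 4.94 and 4.77 TPM and lost its call with the GC trend removed (adjusted p = 0.0547). CD276, the gene of B7-H3, had a log2 fold change of -1.11 and was not called.

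Chemokines and cytokines gave 3 calls of 20. CXCL10, a ligand of CXCR3 that draws T cells, rose from 1.36 and 1.93 TPM to 19.1 and 19.4 TPM. CXCL11, a second ligand of that receptor, rose from 1.36 and 1.53 TPM to 17.1 and 10.05 TPM, and IL6 from 9.24 and 9.24 TPM to 16.96 and 20.5 TPM. CCL2, at 1837 and 1898 TPM in A, was at 1108 and 1235 TPM in C, a log2 fold change of -0.66 that was not called. In the list of death receptors and caspases, TNFSF10 (TRAIL), CASP8 and BCL2L14 were called higher of 18. TNFSF10 was at 36.4 and 16.5 TPM in A and 161 and 191 TPM in C, whereas its receptors TNFRSF10A and TNFRSF10B had log2 fold changes of 0.43 and 0.04.

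Other lists that were looked at gave few or no calls. None of 24 sterol synthesis genes, 22 G1/S and replication genes, 20 G2/M and mitosis genes, 12 unfolded protein and amino acid stress genes, 16 hypoxia and glycolysis genes, 12 p53 targets or 10 histone acetyltransferases was called in C against A by edgeR. Their median log2 fold changes lay between -0.14 and 0.15. DESeq2 called 0 in each of these lists as well, and at an unadjusted p under 0.05 edgeR gave 9, 8, 9, 3, 4, 3 and 2 genes, in the order named. Of 6 guanylate-binding proteins, GTPases that attack pathogen vacuoles, GBP1, GBP4 and GBP5 were called higher, with log2 fold changes of 2.08, 2.41 and 3.48. Of 14 complement genes C1S and SERPING1, a protease and the inhibitor of its complex, were called higher with 1.06 and 2.94. Among 18 immediate early and AP-1 genes BATF2 was called higher and FOSL2 lower. MMP13, a collagenase of the epithelial-mesenchymal list, rose from 7.73 and 10.1 TPM to 49.96 and 53.7 TPM. BTC, an EGFR ligand, had a log2 fold change of 1.94 and was the single gene of 10 called in its list. The 5 tested Schlafen genes gave no call by edgeR or DESeq2 and 2 at an unadjusted p under 0.05, with log2 fold changes from -0.22 to 0.89.

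Genes called higher were found at every untreated level. In A the genes called higher had a median of 5.61 TPM, with quartiles of 1.51 and 26.3 TPM, against a median of 8.68 TPM for all tested genes, and in C their median was 20.7 TPM. Of 3214 tested genes under 1 TPM in A, 54 were called higher (1.68%), with a median log2 fold change of 3.08. Between 1 and 10 TPM it was 115 of 7242 genes (1.59%) with a median of 1.76, and between 10 and 100 TPM 89 of 8209 genes (1.08%) with 1.70. At 100 TPM or more it was 22 of 1279 genes (1.72%) with 1.39, and those 22 genes reached a median of 754 TPM in C. These 22 include 8 U1 snRNA copies, MT-ATP8, MT-ND4L, MT-TL1, MT-TI, SCARNA7 and HIST1H2BM, which are not interferon genes. The U1 copies share reads, as described below, and were counted separately in this share. The share called was between 1.08% and 1.72% in the 4 classes. The median change was largest under 1 TPM, and since the A samples enter both the level and the change, these values are given as a description. The filter on low counts also ran over all 6 groups. A gene with too few counts in A was therefore tested only if other samples passed the filter. That shapes both the number of genes tested under 1 TPM and their median change.

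**Figure D3:**
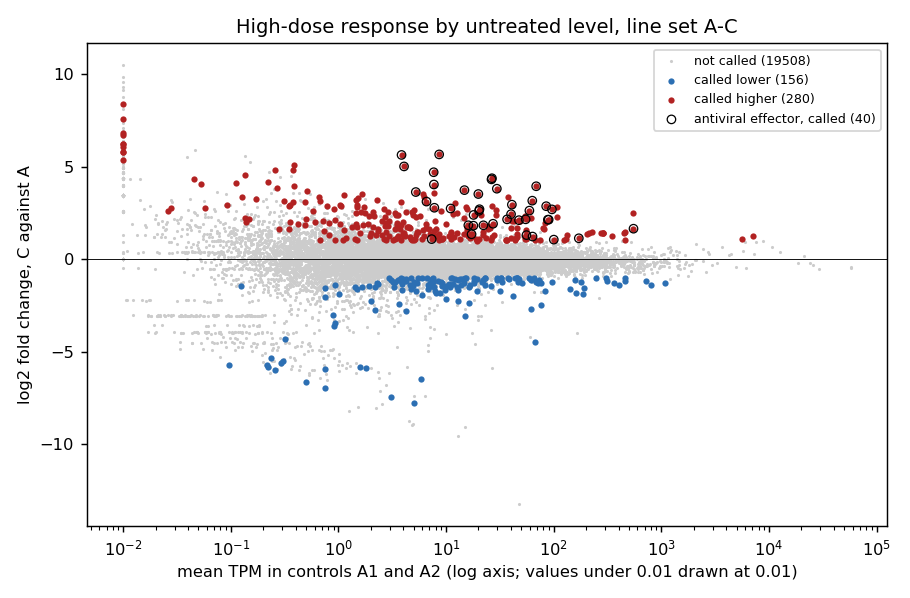
Log2 fold change of C against A (vertical axis) against the mean TPM of the controls A1 and A2 (horizontal log axis); each point is a tested gene, grey where not called, red where called higher, blue where called lower, and open circles mark the 40 called antiviral effectors. The red points span untreated levels from 0 to 7072 TPM, the highest being MT-ATP8.

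The highest fitted changes were of genes with 0 counts in the controls. Such genes passed the filter on low counts only through other samples. Their fitted size depends on the prior count of the fit and is no bound. The ratio of the mean level in C to a floor of 3 counts per library in A is given instead. That ratio leaves out the error of the counts in C, so it is no lower limit. MIR200CHG, the host gene of a miR-200 cluster, had 0 counts in both A samples and 32 and 34 counts in C, 14.6 times the floor. It kept its call in all 14 alternatives. BEST3 and PCLO had 0 counts in A and at most 17 counts in C. IVL, which encodes the cornified envelope protein involucrin, had 0 counts in A and 9 and 6 counts in C, 3.27 times the floor. IVL lost its call in 8 of the 12 alternatives that gave it a value, DESeq2 among them, BEST3 in 10 of 14 and PCLO in 8 of 13. In B, IVL had 5 and 19 counts and MIR200CHG 19 and 24. Of the 280 genes, 10 had 0 counts in both controls and 11 stayed under 1 TPM in all 4 samples.

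Some of the most abundant genes called higher are not interferon genes. MT-ATP8 was at 7351 and 6794 TPM in A and at 11294 and 22378 TPM in C (log2 fold change 1.26, SE 0.27, adjusted p = 0.0327), and was not called with the GC trend removed (adjusted p = 0.0627). MT-ND4L went from 5819 and 5503 TPM to 11505 and 11915 TPM. These mitochondrial genes overlap MT-ATP6 and MT-ND4, so their reads are divided by estimate, and their rise accompanied the higher mitochondrial share given above. Of 13 mitochondrially encoded protein genes 2 were called, with a list median of 0.66, and of 21 mitochondrial tRNA and rRNA genes 7. With the GC trend removed these counts were 1 and 3. Among 20 tested U1 snRNA genes 8 were called higher, with RNU1-3 at 502 and 418 TPM in A and 1362 and 1106 TPM in C, but the copies are nearly identical and share reads, so they count as a single uncertain observation. These families were chosen after their values were seen.

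Among genes called lower, replication-dependent histones stood out in number, a family also chosen after its values were seen. Of 65 tested histone genes of the HIST clusters 13 were called lower and 3 higher, with a median log2 fold change of -0.42, and 7 were lower with the GC trend removed. HIST1H4D was at 760 and 859 TPM in A and at 346 and 251 TPM in C (log2 fold change -1.42, SE 0.19, adjusted p = 0.00215). The linker histone HIST1H1B was at 384 and 417 TPM in A, 145 and 192 TPM in B and 143 and 163 TPM in C. HIST1H2BM went the other way, from 335 and 359 TPM to 827 and 835 TPM. These genes lack poly(A) tails and are similar in sequence, and the summed TPM of the 65 was 21958 and 23713 in A and 19575 and 17461 in C. In F against D 6 of the 65 were called lower and 2 higher, with a median of -0.39.

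Ribosomal protein genes gave 2 lower calls of 84, with a median log2 fold change of -0.36. In F against D the median of these genes was -0.375, with 0 called lower, and in B against A it was -0.24. RPS27A, which encodes a fusion of ubiquitin and a small-subunit protein, was at 1218 and 926 TPM in A, 588 and 834 TPM in B and 463 and 379 TPM in C (log2 fold change -1.29, SE 0.13, adjusted p = 0.000377). RPS23 was at 236 and 375 TPM in A and 163 and 142 TPM in C, and lost its call in 8 of 14 alternatives. FOSL2 (ENSG00000075426, chromosome 2, 28392448 to 28417312), the AP-1 subunit Fra-2, was at 44.3 and 38.8 TPM in A, 45.2 and 50.2 TPM in B and 14.1 and 10.7 TPM in C. Its log2 fold change was -1.999 (SE 0.17, adjusted p = 7.83e-05) and -1.91 with the GC trend removed. FGFRL1, an FGF receptor relative without a kinase domain, was at 15.0 and 17.9 TPM in A and 3.34 and 2.30 TPM in C. N6AMT1, a methyltransferase, was at 3.59 and 3.77 TPM in A and 1.91 and 1.84 TPM in C. Its counts fell further than its TPM, from 135 and 161 in A to 21 and 20 in C (log2 fold change -2.43). The reason was not tested.

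The 12 lowest fitted values among genes with a symbol had at most 1 count in each C sample. FAM171A2 had 11 and 23 counts in A and 0 in both C samples, its mean level in A being 4.11 times the floor of 3 counts in C. DMBX1 had 8 and 19 counts in A and 0 in both C samples, with a ratio to the floor of 3.24. Of the 156 genes 14 had 0 counts in both C samples. With so few counts these values say little about size.

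**Figure D4:**
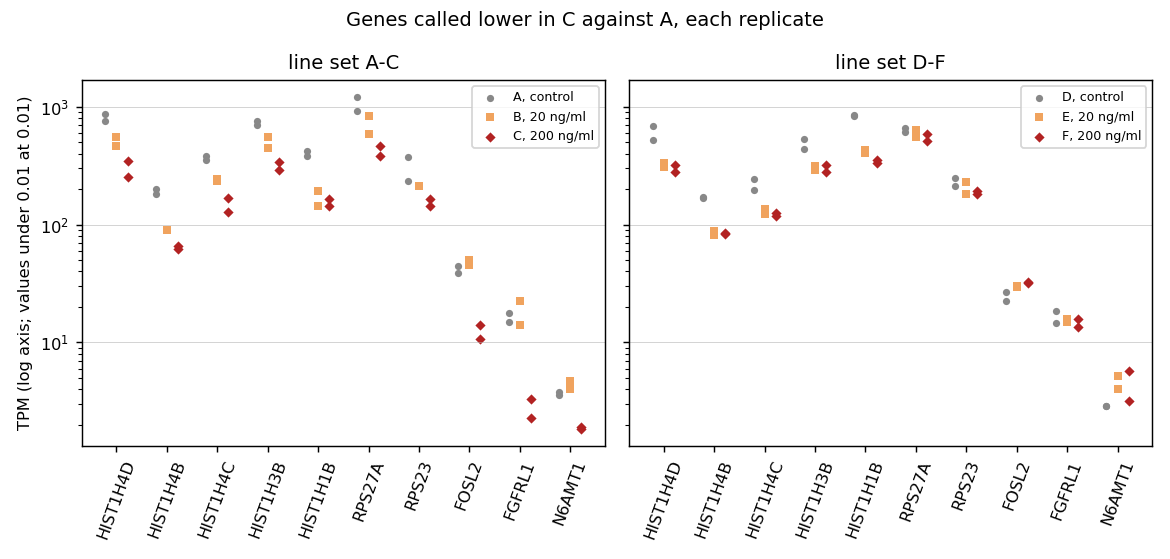
TPM (vertical log axis) of 10 genes called lower in C against A, in every replicate, with line set A-C on the left and D-F on the right; circles are controls, squares 20 ng/ml and diamonds 200 ng/ml. FOSL2 and FGFRL1 fall in C and not in B, while HIST1H1B is lower in both B and C.

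Many of the induced genes were also above the controls at 20 ng/ml. In B against A 142 genes were called (0.712%), 125 higher (0.627%) and 17 lower (0.0852%), a comparison that shares its controls with C against A. The 280 genes had a median log2 fold change of 1.35 in B against A and 117 of them were called there, and the 156 had a median of -0.40 with 8 called. Tested directly, C against B gave 22 calls (0.11%), 8 higher (0.0401%) and 14 lower (0.0702%). Among these were 2 of the 280 genes and 11 of the 156. The count was 187 without C1 and 110 with DESeq2, so it is not stable. TMEM265, at 1.78 and 3.31 TPM in B and 19.3 and 16.5 TPM in C, had a log2 difference of 2.80 (adjusted p = 0.0124). FOSL2 had -2.19 (adjusted p = 0.00108) and FGFRL1 -2.56 (adjusted p = 0.00316).

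GLO1, which detoxifies methylglyoxal, was lower in B than in both other groups, at 137 and 113 TPM in A, 44.5 and 44.2 TPM in B and 120 and 118 TPM in C. RSAD2, XAF1, IFIT1, IFIT3 and MX1 were higher in C than in B by log2 differences of 0.84, 0.67, 0.71, 0.57 and 0.44, with adjusted p-values of 0.026, 0.0381, 0.0454, 0.027 and 0.0482. All 5 stayed short of 2-fold and were not called. ISG15 had -0.24 and IRF7 -0.36 from B to C, neither of them past the test. No antiviral effector was called between the doses by edgeR.

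The same dose was given to the other line set. In F against D 421 genes were called (2.11%), 337 higher (1.69%) and 84 lower (0.421%), in samples that share no library with C against A. Of these, 141 higher genes were in both lists, 50.4% of the A-C list and 41.8% of the D-F list, and 10 lower genes, 6.41% and 11.9%. The difference of the responses, (C against A) against (F against D), was called for 207 genes (1.04%), with a larger value in A-C for 77 (0.386%) and a smaller one for 130 (0.652%). The count was 392 without C1 and between 85 and 126 without A2, D1, F1 or F2 in turn. Among the 280 genes called higher in A-C, the rise was larger in A-C for 29 and smaller for 21. Of the 156 called lower, 30 fell more in A-C. Both lists were chosen by the change in C against A, which is part of this difference. That choice favours larger changes in A-C, so these counts are only a description.

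Of the 50 antiviral effectors, 11 differed by at least 2-fold and passed the test, 10 of them with a smaller rise in A-C. IFI44L had a log2 fold change of 5.63 in A-C and 8.45 in D-F, a difference of -2.83 (SE 0.26, adjusted p = 0.00122). For ISG15 they were 2.79 and 5.60 (difference -2.81, adjusted p = 0.00496), and for OAS2 4.37 and 6.54 (difference -2.18, adjusted p = 0.00122). TRIM22, which restricts retroviral transcription, was the other one of the 11, with 3.72 and 2.56 (difference 1.17, adjusted p = 0.00884). Short of 2-fold, IFIT2, OAS1, OAS3, IFI44 and PML passed the test with differences of -0.96, -0.99, -0.55, -0.64 and -0.54, and EIF2AK2, the kinase PKR, with 0.86 (adjusted p = 0.0299). For MX2, RSAD2, XAF1 and DDX58 the test of the difference was not passed. The differences had values of -1.50 (SE 0.50), -0.58 (SE 0.18), -0.31 (SE 0.15) and -0.36 (SE 0.11).

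Untreated levels stood beside these differences. In A against D 5255 genes were called (26.3%), a comparison that shares the controls of both responses. Of the 280 genes 55 were called higher in A (10.8% of all tested genes were) and 77 lower (15.6%), but of the 50 antiviral effectors 17 were higher in A and 5 lower. OAS2 was at 26.2 and 27.1 TPM in A against 8.21 and 6.69 TPM in D, and after treatment at 395 and 511 TPM in C against 335 and 325 TPM in F. IFI6 was at 29.7 and 29.6 TPM in A against 8.25 and 5.31 TPM in D, and at 433 and 394 TPM in C against 445 and 473 TPM in F. TRIM22 was lower in A, at 13.9 and 15.7 TPM against 61.3 and 53.1 TPM in D, and at 174 and 195 TPM in C against 413 and 383 TPM in F. For OAS2 and IFI6 the control levels lay further apart than the treated levels, while for TRIM22 the A-C samples were below the D-F samples at both.

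**Figure D5:**
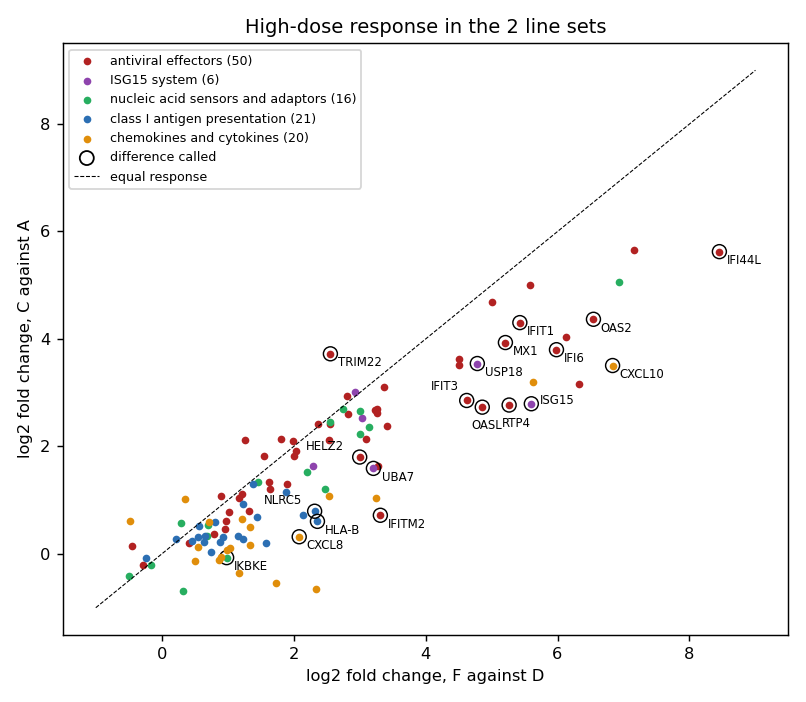
Log2 fold change of C against A (vertical axis) against F against D (horizontal axis) for genes of 5 interferon lists, with list sizes in the key; circled genes differ between the line sets by test, and the dashed line marks equal change. TRIM22 lies above the line, and IFI44L (5.63 against 8.45) and ISG15 (2.79 against 5.60) lie below it.

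Among class I genes, HLA-B and NLRC5 passed the test of the difference. In D-F 8 of 21 were called higher with a median log2 fold change of 0.92, against 2 and 0.34 in A-C. HLA-B had a log2 fold change of 0.61 in A-C and 2.36 in D-F (difference -1.75, SE 0.13, adjusted p = 0.000456), and NLRC5, the transactivator of class I genes, 0.80 and 2.32 (difference -1.52, adjusted p = 0.00136). HLA-B was at 346 and 385 TPM in A and 354 and 332 TPM in D, so its untreated levels were close, and it reached 1782 and 1871 TPM in F. CXCL10 had 3.51 and 6.83 (difference -3.33, adjusted p = 0.0432), from 0.122 and 0 TPM in D. CD274 and PSMB9 had differences of -0.21 (SE 0.33) and -0.09 (SE 0.24), neither of them past the test.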

How the data were processed

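RNA of HNSCC cell lines was sequenced by the authors on the HiseqXTen platform after removal of rRNA, with strand kept. Per the labels, the submitters' processing notes name Trimmomatic 0.36, HISAT2 2.1.0, StringTie 1.3.3b and GRCh38.p10. For 60099 genes the authors gave estimated counts that were not scaled for depth. The deposited TPM are scaled for transcript length and depth. The 12 columns of FPKM and the transcript table were not used. Groups came from the sample titles and the doses from the design text. Counts were rounded and fitted with edgeR 4.0.16 in R 4.3.3 (TMM, filterByExpr, robust quasi-likelihood test, Benjamini-Hochberg adjustment over 19944 genes) in one fit of 6 groups, chosen because 2 replicates per group give few residual degrees of freedom. Each SE came from the fitted change and the root of its F statistic. TPM was used for levels. Alternatives were RLE size factors, no filter, DESeq2 1.42.0, fewer samples, a replicate block, unadjusted p, limma 3.58.1 on log2(TPM + 1) or log2(TPM + 0.1) and leaving out each replicate. A lowess offset on transcript GC content, from GENCODE 29, was chosen after seeing the data. The fits were tested on simulated data. Replicates were not duplicates (chi-square over its degrees of freedom 11.1 to 15.3), and log2 levels correlated at 0.945 to 0.976 within A-C and 0.678 to 0.717 between line sets over 13033 genes, which are not independent replicates. Named genes were the 12 highest and 12 lowest called fold changes, the 10 most abundant called genes each way, the 8 called-higher genes at each end of the untreated level, and the 8 largest each way for the line-set difference and for C against B, with the listed genes. The members and lists were chosen with earlier results of these data known. Promoters are from RefSeq (GRCh38.p14). Python 3.11.15, pandas 2.3.3 and matplotlib 3.10.9 drew the figures. Some genes are not reported here.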

Additional observations from a re-analysis of the deposited data

Results flagged for a closer look

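The test of the difference between the line sets, (C against A) against (F against D), was passed by these named genes, each given as its log2 difference. Where a group had 0 counts, the size depends on the prior count of the fit and is no bound.

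Among antiviral effectors the difference was -1.20 for HELZ2, -2.83 for IFI44L, -2.18 for IFI6, -1.12 for IFIT1, -1.77 for IFIT3 and -2.59 for IFITM2. It was -1.28 for MX1, -2.18 for OAS2, -2.13 for OASL, -2.49 for RTP4 and 1.17 for TRIM22. IFITM2 was at 3.15 and 0.882 TPM in D and 26.9 and 32.2 TPM in F, and in A it was already at 68.7 and 70.4 TPM.

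The largest values in favour of A-C were 8.12 for MIR200CHG, 5.30 for AL445647.1, 2.97 for PADI3, 2.50 for SNORD11B, 2.41 for CLCA2, 2.30 for ENO1P1, 1.90 for RNVU1-18 and 1.89 for RNU1-3. AL445647.1 had 0 counts in both A samples and 6 and 2 counts in C. With the GC trend removed it did not pass edgeR's test of the difference (adjusted p = 0.0591). PADI3, which turns arginine into citrulline in skin proteins, was at 21.4 and 23.9 TPM in A and 19.5 and 17.6 TPM in C. Its value came from D-F, where the log2 fold change was -3.24, from 24 and 26 counts in D to 2 in each F sample. The enolase pseudogene ENO1P1 shares sequence with its parent gene and is uncertain.

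The largest values the other way were -9.40 for UCN2, -6.91 for IDO1, -6.78 for FAM171A2, -6.64 for DMBX1, -6.14 for CD74, -6.06 for GRIP2, -5.88 for SLFN11 and -5.37 for AC092329.4. UCN2, CD74, SLFN11 and IDO1 were listed at 0 TPM in both D samples. In F they stayed low: UCN2 was at 3.29 and 8.66 TPM and IDO1 at 5.14 and 4.02 TPM. CD74 had 12 and 8 counts in F (1.23 and 1.03 TPM), against 271 and 321 TPM in C, and SLFN11 had 8 and 4 counts in F. FAM171A2, DMBX1 and AC092329.4 had 0 counts in both C samples. With the GC trend removed, CD74 and AC092329.4 did not pass edgeR's test of the difference (adjusted p = 0.0672 and 0.0514). SLFN11, which sensitises cells to DNA damage, was at 40.4 and 35.7 TPM in A and 30.3 and 40.9 TPM in C.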

How the results depend on the processing

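No value that could be computed changed direction. Of 44 named genes, 31 had a value with A, B and C samples alone and 28 with only the groups compared; the others had too few counts in those samples to be tested. With only the groups compared in the fit, 178 genes were called higher and 37 lower in C against A, 130 for the difference of the line sets and 8 in C against B. With A, B and C samples alone, 77 were lower. Without adjustment of p, 592 were higher and 457 lower, and 926 genes were called in F against D, 1201 for the difference and 546 in C against B. DESeq2 called 323 for the difference and 110 in C against B, limma 132 for the difference on log2(TPM + 0.1) and 12 in C against B on log2(TPM + 1). The GC offset gave 73 lower genes and 13 in C against B.

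Leaving out a replicate in turn gave 193 to 275 higher genes and 59 (A2) to 364 (C1) lower genes, 310 to 329 in F against D, 85 (F2) to 392 (C1) for the difference, 12 (B1) to 187 (C1) in C against B, 4612 to 4778 in A against D and 34 to 37 antiviral effectors; a group left with 1 sample was assumed to vary like the others. The cause was not tested. Replicate numbers did not pair the samples (correlation of deviations -0.0507 to 0.0462 in A-C and 0.0319 to 0.0585 in D-F). With the replicate block, 235 genes were higher and 120 lower, 375 were called in F against D, 112 for the difference, 5 in C against B and 4690 in A against D, with 40 antiviral effectors. Of the named genes, 22 lost their call without A2 and 21 without C2, 18 with limma on log2(TPM + 1) and 9 with the GC offset, which was chosen after seeing the data. In the bases before the start alone, the response element core was in 2.48% and the STAT core in 5.66% of windows.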

Other observations

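Further genes called higher in C against A were chosen after their values were seen. RNF213, a giant ubiquitin ligase, was at 82.1 and 84.4 TPM in A and 356 and 339 TPM in C, a log2 fold change of 1.96 with an adjusted p of 5.83e-08 from edgeR. LAP3, an aminopeptidase, was at 48.2 and 49.1 TPM in A and 187 and 196 TPM in C. TYMP, which encodes thymidine phosphorylase, was at 5.57 and 4.40 TPM in A and 33.7 and 29.7 TPM in C. The groups did not overlap in any of these genes.

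The long noncoding RNAs NRIR and BISPR were called as well. NRIR was at 0.272 and 0 TPM in A and 3.71 and 6.26 TPM in C, and BISPR at 7.89 and 9.21 TPM in A and 29.3 and 22.8 TPM in C. RNASE7, an antimicrobial ribonuclease of skin, was at 34.1 and 39.3 TPM in A and 78.0 and 71.3 TPM in C. It was under 1 TPM in D and F, and the test of the difference was not passed.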
